A study of Mus musculus with 57 samples.

Results

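The collagen genes of the mouse heart were described after doxorubicin (Doxo), an anthracycline used against tumours, and after Doxo with nicotinamide mononucleotide (NMN), a precursor of NAD+. Members were all gene symbols made of Col, a type number, the letter a and a chain number that stood in the count tables of both studies. This rule found 44 genes among the 25416 symbols that both tables held, 11 of them fibrillar collagens, 8 basement membrane collagens and 25 others. The acute study held 40 hearts of wild-type male C57BL/6 mice bought at 9 weeks of age and sampled on day 5. These were 14 Ctrl hearts given vehicle only, 13 Doxo hearts after 1 injection of 20 mg/kg, and 13 Doxo-NMN hearts that also had NMN injections of 180 mg/kg per day from 5 days before Doxo. The chronic study held 17 hearts of wild-type male C57BL/6 mice that were 14 to 16 weeks old at the first injection and were sampled on day 60. These were 5 Ctrl hearts, 6 Doxo hearts after 5 injections of 4 mg/kg, and 6 Doxo-NMN hearts from mice that also drank NMN at 500 mg/kg per day from 5 days before the first injection. Ctrl mice received saline (acute) or PBS (chronic) injections, no group received NMN without Doxo, and the Doxo and Doxo-NMN hearts came from animals that were alive at sampling. Each library was made from poly(A) RNA of heart tissue with all its cell types, so fewer cells of a type and less RNA per cell cannot be told apart. The acute and chronic hearts went to different sequencing sites, so study, mouse age, dosing and site cannot be told apart.

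Collagens are proteins of 3 chains wound into a triple helix. Fibrillar collagens such as types I, III and V assemble into the fibres that carry tension between heart muscle cells, and fibroblasts are their main source. Type IV collagens form the sheet-like network of basement membranes around muscle cells and capillaries, with types XV and XVIII attached to it. Type VI forms beaded filaments next to the basement membrane, the fibril-associated types decorate fibres, and types XIII and XVII cross the cell membrane.

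Levels are given as CPM, counts scaled to a common library size by library totals corrected with TMM, the trimmed mean of M-values. Totals ran from 32409622 to 52102850 counts per acute heart and from 17769886 to 23862287 per chronic heart. Some hearts stood apart in their collagens. Acute Doxo heart 6 lay at or above the lowest Ctrl heart for 21 of the 21 members that fell in the acute Doxo group, and it was the highest Doxo heart for 15 of them. Chronic Doxo heart 2 was the lowest of its group for 20 of the same 21 members, and it lay below the lowest chronic Ctrl heart for each of them. No share over all genes is given beside such counts, and these 2 hearts stood apart in other genes too. The summed CPM of 8 genes for collagen folding and secretion was 746 in acute Doxo heart 6 and 333 to 424 in the other acute Doxo hearts. In chronic Doxo heart 2 it was 342, against 631 to 792 in the rest of its group. Acute hearts also differed in atrial genes, with the atrial light chain Myl4 at 100 CPM or more in 8 of 14 Ctrl, 5 of 13 Doxo and 4 of 13 Doxo-NMN hearts, and in 0 of 17 chronic hearts (at most 83.8 CPM). For main results that moved by over 1.5-fold or turned without such a heart, the value without it is given as well.

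The sequences just before the transcription start are shown for 4 members that fell and the 2 that rose in acute Doxo hearts, so that their promoters can be set side by side. Those that fell had the largest log2 falls among members with a single RefSeq window free of annotated exons, and the window of Col17a1 was trimmed to its exon-free part. They were copied from RefSeq (GRCm38.p6), 5′ to 3′ on the strand of the gene, and capitals mark each match on either strand to a promoter motif. The motifs searched were the CCAAT box (CCAAT), the TATA box (as TATAAA) and the GC box (as GGGCGG). The windows lie at chr1:45311288-45311537 (Col3a1, plus strand), chr4:47207762-47208011 (Col15a1, plus), chr1:90843972-90844221 (Col6a3, minus), chr9:20815068-20815317 (Col5a3, minus), chr10:61979109-61979358 (Col13a1, minus) and chr19:47692095-47692292 (Col17a1, minus).
Col3a1: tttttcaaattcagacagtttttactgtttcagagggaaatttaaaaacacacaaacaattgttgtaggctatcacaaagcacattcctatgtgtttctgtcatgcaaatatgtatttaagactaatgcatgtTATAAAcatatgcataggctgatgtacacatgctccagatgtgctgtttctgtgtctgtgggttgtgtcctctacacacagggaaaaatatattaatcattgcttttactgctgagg
Col15a1: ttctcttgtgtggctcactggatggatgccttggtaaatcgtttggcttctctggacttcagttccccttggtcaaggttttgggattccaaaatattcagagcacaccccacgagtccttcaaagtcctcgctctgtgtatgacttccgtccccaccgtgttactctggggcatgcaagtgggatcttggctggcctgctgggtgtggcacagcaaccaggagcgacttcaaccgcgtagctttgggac
Col6a3: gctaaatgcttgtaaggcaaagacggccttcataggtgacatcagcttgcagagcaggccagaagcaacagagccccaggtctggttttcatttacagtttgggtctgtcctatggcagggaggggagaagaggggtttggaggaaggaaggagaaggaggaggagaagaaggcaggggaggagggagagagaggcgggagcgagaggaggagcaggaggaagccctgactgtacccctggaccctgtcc
Col5a3: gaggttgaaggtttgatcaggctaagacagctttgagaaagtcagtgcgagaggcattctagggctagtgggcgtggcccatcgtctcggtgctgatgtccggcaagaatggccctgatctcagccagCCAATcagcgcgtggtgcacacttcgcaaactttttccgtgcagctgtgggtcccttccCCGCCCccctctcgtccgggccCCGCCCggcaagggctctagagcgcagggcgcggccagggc
Col13a1: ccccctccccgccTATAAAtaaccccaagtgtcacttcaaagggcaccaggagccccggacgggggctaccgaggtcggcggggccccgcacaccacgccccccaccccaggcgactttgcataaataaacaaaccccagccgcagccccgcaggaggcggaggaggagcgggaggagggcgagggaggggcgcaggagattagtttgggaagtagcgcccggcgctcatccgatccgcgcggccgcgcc
Col17a1: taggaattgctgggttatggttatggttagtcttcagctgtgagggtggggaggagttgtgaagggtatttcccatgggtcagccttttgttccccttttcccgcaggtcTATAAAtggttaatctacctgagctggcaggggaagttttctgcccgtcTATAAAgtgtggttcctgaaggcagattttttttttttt

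These windows had little in common. Col3a1 held 1 TATAAA in a window of 35.2% G and C, Col5a3 held 1 CCAAT and 2 GGGCGG in one of 62.8%, and Col15a1 and Col6a3 held none of the 3. Both members called higher held TATAAA, once in Col13a1 and 2 times in Col17a1, though Col17a1 was tested only because it was high in Doxo hearts. No match overlapped another. Of the 44 members, 35 had a RefSeq window, 38 windows in all. TATAAA stood in 5 of the 38 (13.16%) and in 12.37% of the 32851 windows of all genes. CCAAT stood in 34.21% of collagen windows and 33.85% of all windows, and GGGCGG in 57.89% and 32.74%. A match is a string of letters and not a shown binding site.

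Several members are neighbours that start next to each other in opposite directions. In the annotation (GENCODE, GRCm38) Col4a1 and Col4a2 on chromosome 8 overlapped by 22 bases at their starts. The sources used here do not say how reads from that stretch were counted. Col4a3 and Col4a4 on chromosome 1 were 71 bases apart. That shared gap is printed because both genes start from it and both fell in the acute Doxo hearts. It lies at chr1:82586850-82586920, is written on the strand of Col4a3 and held none of the 3 motifs.
Col4a3 and Col4a4: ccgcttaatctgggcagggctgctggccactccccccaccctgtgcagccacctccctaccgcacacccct

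In the acute study, Doxo vs. Ctrl asked what a single high dose had done to the heart by day 5. The collagens mostly fell. Of 36 members that passed the low-count filter, 21 were lower and 2 higher by an adjusted p below 0.05 together with a change of 1.5-fold or more (edgeR quasi-likelihood F-test, Benjamini-Hochberg over 14240 genes). By the same rule 15.4% of all tested genes were lower and 14.7% higher. The median log2 fold change was -0.93 over the collagens and -0.00 over all genes. All 8 tested fibrillar collagens fell (median -1.70), against 4 of 8 basement membrane collagens (median -0.76) and 9 of 20 others (median -0.49), and the 2 that rose were among the others. Of these 2, Col17a1 passed the filter only through the Doxo hearts. Without Doxo heart 6 the count was 22, and within hearts of low and of high Myl4 it was 24 and 25. The shares of all genes given above come from the fit of all acute hearts, not from these smaller fits. Col2a1, Col6a4, Col9a1, Col10a1, Col11a1, Col19a1, Col24a1 and Col26a1 did not pass the filter and were not tested. Of the fibrillar genes among these, Col2a1 reached 0.888 CPM in Doxo and 0.0858 in Ctrl hearts. The highest Doxo and Ctrl hearts were at 0.389 and 0.774 CPM for Col11a1, and at 0.262 and 0.257 for Col24a1.

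**Figure D1:**
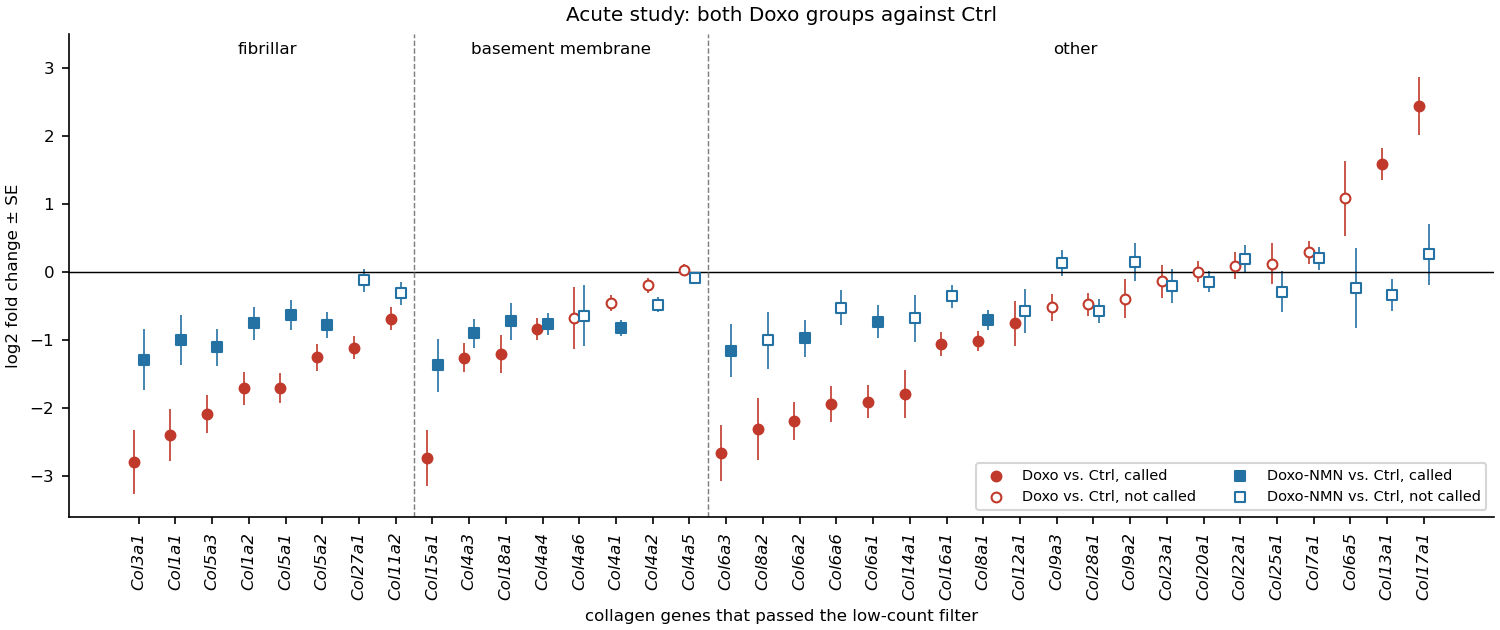
Log2 fold change (vertical axis) of each collagen gene tested in the acute study, by class, for Doxo vs. Ctrl (circles) and Doxo-NMN vs. Ctrl (squares), both against the same 14 Ctrl hearts, with bars of 1 standard error and filled symbols where the gene was called. The 8 fibrillar genes lie below 0 in Doxo vs. Ctrl, while Col13a1 (1.59) and Col17a1 (2.44) lie above it. Col17a1 passed the filter only through the Doxo hearts, so its filled symbol gives no support to a rise.

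Type III collagen was among the members that fell most. Col3a1, its only chain, ran from 169 to 302 CPM in the 14 Ctrl hearts (median 241) and from 2.66 to 210 in the 13 Doxo hearts (median 13.3). In 12 of 13 Doxo hearts Col3a1 lay below the lowest Ctrl heart, and the exception was heart 6 at 210 CPM. The log2 fold change was -2.79 ± 0.47 (SE; adjusted p = 2.64e-06, edgeR) and -3.62 without heart 6.

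Both chains of type I collagen, the main fibre of the heart, fell as well. Col1a1 ran from 82.5 to 139 CPM in Ctrl hearts (median 111) and from 2.17 to 94.1 in Doxo hearts (median 11). Col1a2 ran from 107 to 196 CPM in Ctrl (median 145) and from 13.4 to 114 in Doxo (median 35.6). For each gene 12 of 13 Doxo hearts lay below every Ctrl heart. The log2 fold change of Col1a1 was -2.39 ± 0.38 (adjusted p = 1.19e-06) and that of Col1a2 was -1.71 ± 0.24 (adjusted p = 1.42e-07, edgeR).

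The type V chains, which start fibrils and set their width, followed. Col5a3 had a median of 44.5 CPM in Ctrl (39 to 63.1) and 7.40 in Doxo (2.73 to 49.7), a log2 fold change of -2.08 ± 0.28. Col5a1 had medians of 53.5 and 12.2 CPM, with ranges of 43 to 59.3 and 5.66 to 51, and a log2 fold change of -1.70 ± 0.23. Among the less abundant fibrillar genes, the log2 fold change was -1.25 for Col5a2, -1.11 for Col27a1 and -0.68 for Col11a2. Ranges overlapped for Col11a2 (1.53 to 4.48 CPM in Ctrl and 0.766 to 3.26 in Doxo).

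**Figure D2:**
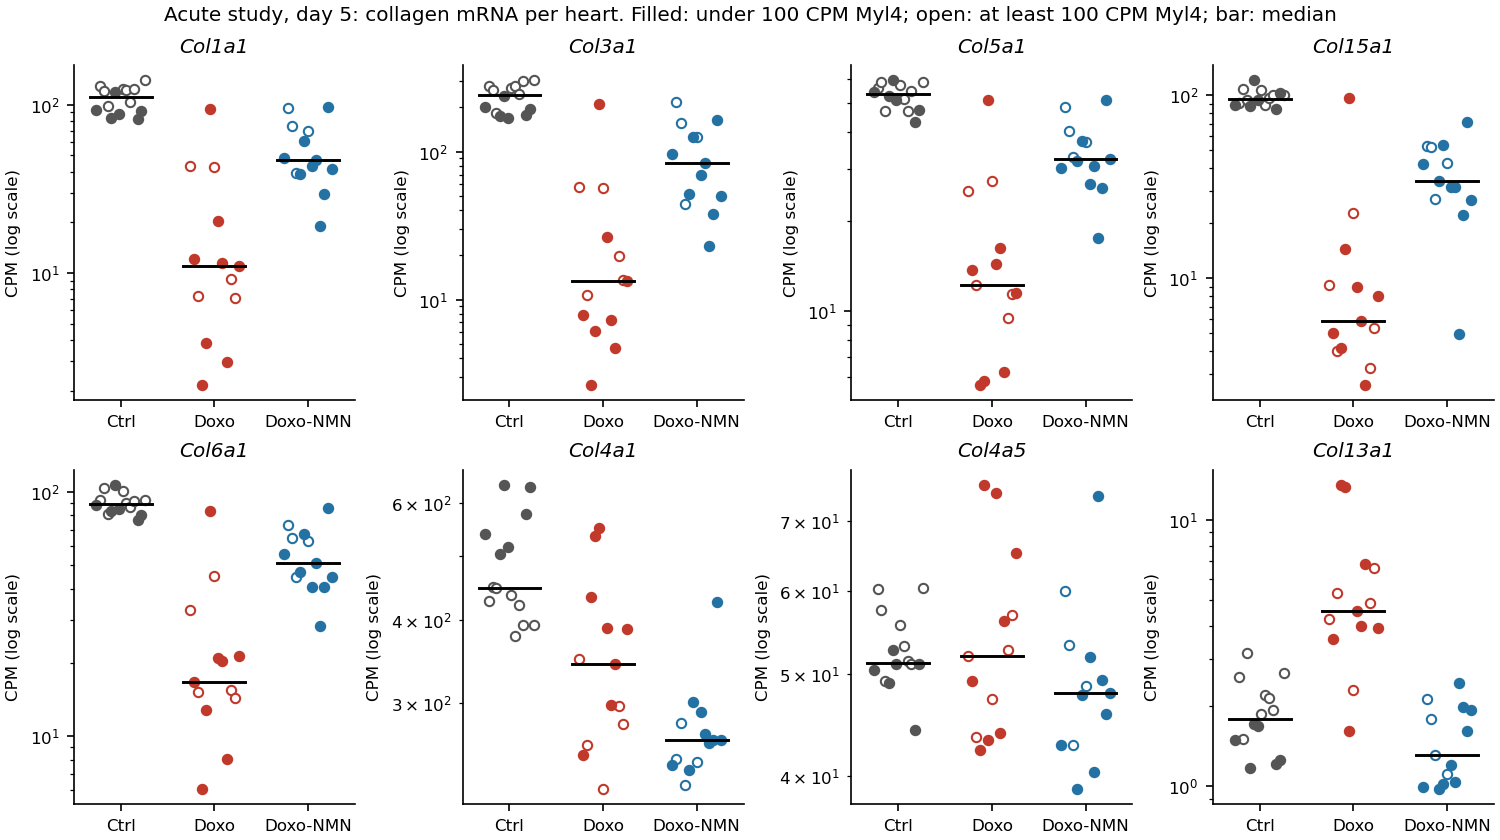
Level of 8 collagen genes in each heart of the acute study (CPM, log axis), with filled points for hearts with Myl4 under 100 CPM, open points for the rest and a bar at each group's median. Doxo hearts of Col1a1, Col3a1, Col5a1, Col15a1 and Col6a1 spread widely, with heart 6 at the level of Ctrl, while Col4a5 stays between 38.9 and 75.8 CPM in all 40 hearts.

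Basement membrane collagens split by chain. Per kilobase of exon, the Ctrl mean of Col4a1, a chain of nearly every basement membrane, was 64.6 CPM and that of its partner Col4a2 was 53.9, the highest levels of all members and above Col3a1 at 23.7. Col4a1 ran from 379 to 639 CPM in Ctrl (median 447) and from 223 to 551 in Doxo (median 344). The groups overlapped, with 8 of 13 Doxo hearts below the lowest Ctrl heart, and the log2 fold change of -0.45 ± 0.12 (adjusted p = 0.000948) stayed under the fold threshold. Col4a2 ran from 289 to 458 CPM in Ctrl and from 221 to 485 in Doxo, a log2 fold change of -0.20 ± 0.11 (adjusted p = 0.0948). Col4a5, a chain of the alternative type IV network, was at 44.3 to 60.4 CPM in Ctrl and 42.3 to 75.8 in Doxo (log2 fold change 0.04 ± 0.09, adjusted p = 0.715).

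The other members of this class did fall, apart from Col4a6, which was not called. Col15a1, a proteoglycan that ties basement membranes to the matrix, ran from 84.6 to 120 CPM in Ctrl (median 95.7) and from 2.62 to 96.8 in Doxo (median 5.82). Heart 6 was the only Doxo heart of Col15a1 in the Ctrl range, and the log2 fold change was -2.73 ± 0.41, or -3.64 without it. Col18a1, the precursor of endostatin, had medians of 17.7 and 4.76 CPM (log2 fold change -1.20 ± 0.28). The divergent pair Col4a3 and Col4a4, known from the kidney filter, fell by 1.26 and 0.84 on the log2 scale, from medians of 5.12 and 12.5 CPM to 1.76 and 7.25. For Col4a6 the log2 difference was -0.67 ± 0.45 (adjusted p = 0.185).

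Of the 5 tested type VI chains 4 fell. Col6a3, the longest chain of the beaded filament, ran from 38.2 to 65.9 CPM in Ctrl (median 50.5) and from 1.18 to 48.7 in Doxo (median 3.77), a log2 fold change of -2.66 ± 0.41, or -3.45 without heart 6. Its partners Col6a1 and Col6a2 had Ctrl medians of 88.9 and 90.9 CPM and Doxo medians of 16.7 and 11.5, with log2 fold changes of -1.90 and -2.19. For all 3 chains, 12 of 13 Doxo hearts lay below every Ctrl heart. Col6a6, an alternative to Col6a3, had medians of 10.002 and 2.08 CPM and a log2 fold change of -1.93. Col6a5, tested at medians of 0.178 CPM in Ctrl and 0.159 in Doxo, was not called (1.08 ± 0.55, adjusted p = 0.0801). Its fitted value is positive though the median is lower in Doxo. For Col6a5, 2 of 13 Doxo hearts lay above every Ctrl heart, the highest at 3.27 CPM, and 8 lay below the Ctrl median.

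Of the fibril-associated and short-chain members, Col14a1, Col16a1, Col12a1, Col8a1 and Col8a2 fell, by less or from lower levels. Col9a2, Col9a3, Col20a1 and Col22a1 were tested and not called. Col14a1, which binds the surface of fibrils, ran from 8.91 to 37.7 CPM in Ctrl (median 22) and from 0.909 to 16.8 in Doxo (median 3.04), a log2 fold change of -1.79 ± 0.35. Log2 fold changes were -1.06 for Col16a1, -1.01 for Col8a1, -2.31 for Col8a2 (medians 0.944 and 0.167 CPM) and -0.75 for Col12a1 (adjusted p = 0.0424). The Col12a1 value depended on the atrial hearts, and it was 0.030 in hearts with low Myl4 (adjusted p = 0.946). It lost its call in 16 of 40 fits that left out 1 heart.

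Both members that rose are among the 4 transmembrane collagens. The other 2, Col23a1 and Col25a1, were not called, at -0.14 ± 0.25 (adjusted p = 0.63) and 0.12 ± 0.30 (adjusted p = 0.725) on the log2 scale. Col13a1, found at cell-matrix junctions, ran from 1.18 to 3.15 CPM in Ctrl (median 1.79) and from 1.62 to 13.5 in Doxo (median 4.55). Its highest Doxo hearts were 4 and 5, at 13.5 and 13.3 CPM, where Col1a1 was at 2.17 and 3.86 CPM, and its lowest was heart 6, where Col1a1 was at 94.1. These hearts were picked at the ends of the Col13a1 range, and a relation between Col13a1 and Col1a1 was not tested. The log2 fold change of Col13a1 was 1.59 ± 0.24 (adjusted p = 2.79e-07). Col17a1, a collagen of epithelial hemidesmosomes, ran from 0 to 0.231 CPM in Ctrl and from 0.0498 to 1.84 in Doxo. Col17a1 reached the filter level of 0.252 CPM in 0 of 14 Ctrl, 11 of 13 Doxo and 2 of 13 Doxo-NMN hearts, so it was tested only because it was high in Doxo hearts and had to differ. Its fitted log2 fold change was 2.44 ± 0.42.

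**Figure D3:**
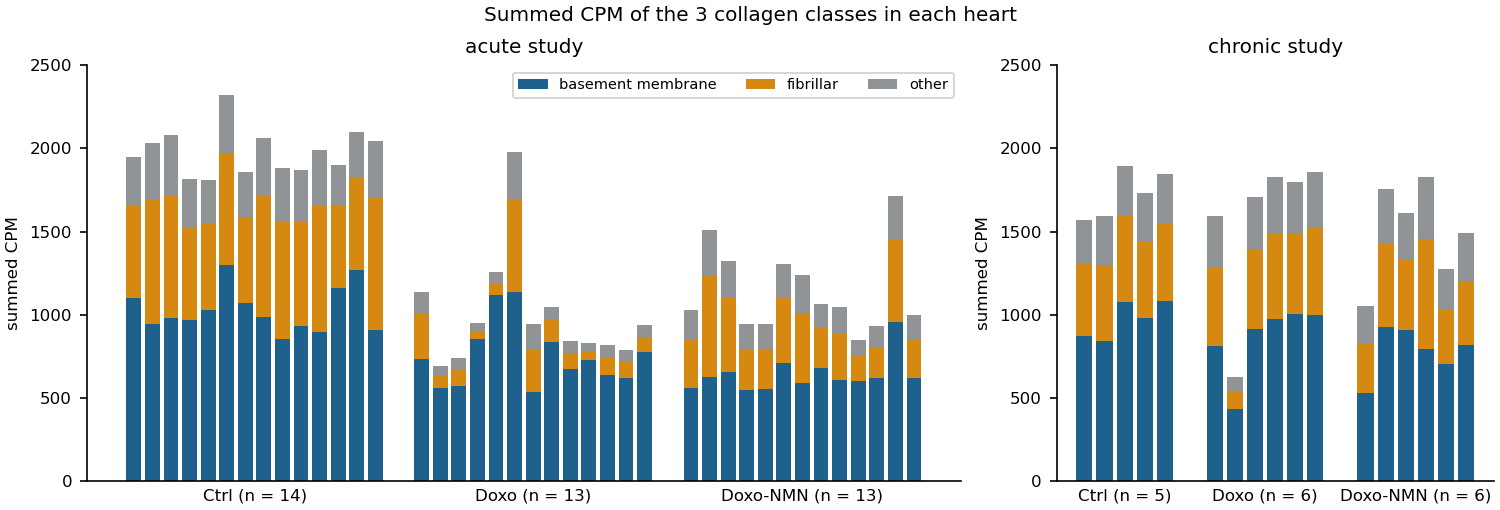
Summed CPM of fibrillar, basement membrane and other collagens as stacked bars, 1 bar for each heart, grouped by study and treatment. The fibrillar part shrinks most in acute Doxo hearts (mean 23.3% of Ctrl) and in chronic Doxo heart 2, and the basement membrane part has the largest mean in each group.

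The sums show how the balance of classes moved. Fibrillar collagens summed to 490 to 793 CPM in Ctrl, 38.8 to 561 in Doxo and 154 to 606 in Doxo-NMN hearts. As a mean this was 23.3% of Ctrl in Doxo, or 17.9% without heart 6, and 50.9% in Doxo-NMN. Basement membrane collagens were at 73.2% and 62.3% of Ctrl, and the others at 30.6% and 57.6%. Fibrillar genes held 32.2% ± 4.74 (SD, n = 14) of all collagen CPM in Ctrl, 13.6% ± 7.94 in the 13 Doxo hearts and 27.5% ± 6.02 in the 13 with NMN. With CPM per kilobase in place of CPM the shares were 26.7%, 10.6% and 22.2%. These sums were not tested, since they follow from the members above.

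Ratios within a heart do not depend on how libraries were scaled. Type I collagen holds more Col1a1 than Col1a2 chains. The count ratio of Col1a1 to Col1a2 ran from 0.657 to 0.823 in the 14 Ctrl hearts (median 0.724) and from 0.150 to 0.824 in the 13 Doxo hearts (median 0.358). Doxo hearts thus had less Col1a1 for each Col1a2 count, a log2 difference of -1.25 (two-sided permutation test with 100000 resamples, adjusted p = 6e-05 over 24 tests, with the raw p of 1e-05 the smallest it can give). The ratio of Col1a1 to Col3a1 rose, with medians of 0.464 and 0.750 and a log2 difference of 0.67 (adjusted p = 9.6e-05, permutation test). Col4a1 to Col4a2 fell from 1.3 to 1.4 in Ctrl to 0.964 to 1.32 in Doxo, a log2 difference of -0.26 (adjusted p = 6e-05, permutation test).

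**Figure D4:**
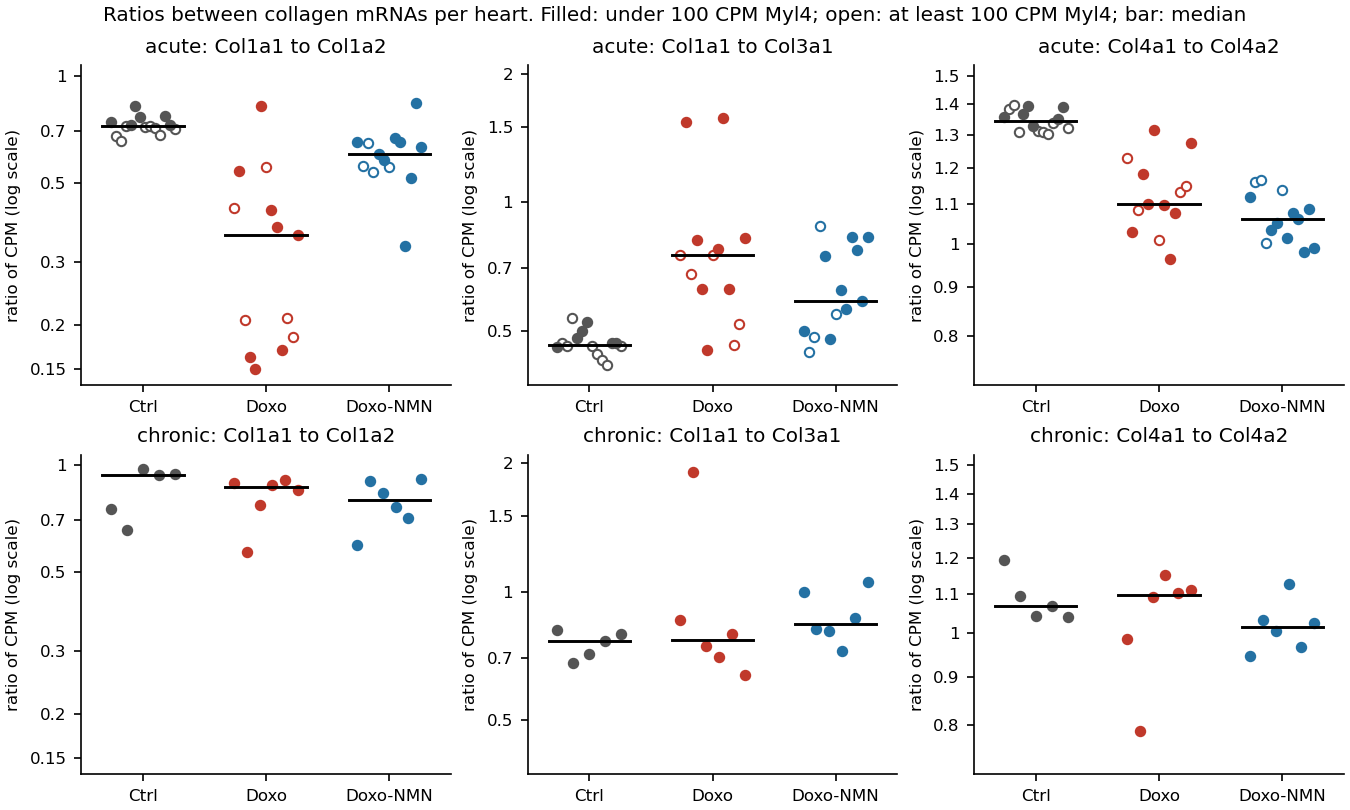
Count ratios of Col1a1 to Col1a2, Col1a1 to Col3a1 and Col4a1 to Col4a2 in each heart of both studies (log axis), with filled points for hearts with Myl4 under 100 CPM, open points for the rest and a bar at each group's median. In the acute study Col4a1 to Col4a2 does not overlap between Ctrl (1.3 to 1.4) and Doxo-NMN (0.980 to 1.17), and no chronic comparison passed the test.

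Doxo-NMN vs. Doxo asked what NMN changed in mice given the same dose. Collagens were mostly higher with NMN. Of 36 members 15 were higher and 2 lower, against 8.17% of all genes higher and 8.88% lower, and the median log2 fold change was 0.42 over collagens and -0.00 over all genes. Those higher were 6 of 8 fibrillar genes, 8 of 20 others and 1 of 8 basement membrane genes, Col15a1. Of the 2 lower, Col17a1 passed the filter only through the Doxo hearts. Without Doxo heart 6 the count was 19. Within hearts of low Myl4 (8 Doxo, 9 Doxo-NMN) it was 10, with 8 higher and 2 lower, and within those of high Myl4 (5 and 4) it was 18. Here too the shares of all genes belong to the fit of all acute hearts.

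The fibrillar genes sat between the other groups. Col3a1 ran from 23 to 215 CPM in the 13 Doxo-NMN hearts (median 83.5), a log2 fold change of 1.51 ± 0.45 against Doxo (adjusted p = 0.00532, edgeR), or 2.34 without Doxo heart 6. All 13 Doxo-NMN hearts lay above the Doxo median, though 12 of them were within the range of the Doxo hearts, which heart 6 stretches upward. Col1a1 ran from 19.1 to 96.3 CPM (median 46.8), a log2 fold change of 1.39 ± 0.38 (adjusted p = 0.00223). Within hearts of low Myl4 the values were 1.16 for Col3a1 (adjusted p = 0.161) and 1.24 for Col1a1 (adjusted p = 0.0634), and within those of high Myl4 they were 2.08 and 1.66.

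Other called members had like differences. Log2 fold changes were 0.95 for Col1a2, 1.07 for Col5a1, 0.97 for Col5a3 and 0.99 for Col27a1. For the beaded filament it was 1.18 for Col6a1, 1.21 for Col6a2, 1.5 for Col6a3 (2.29 without Doxo heart 6) and 1.41 for Col6a6. Col15a1 had a median of 33.9 CPM with NMN (4.94 to 71.2) and a log2 fold change of 1.37 ± 0.40, or 2.27 without Doxo heart 6. Col14a1, Col16a1, Col8a2 and Col9a3, a chain of the cartilage-type fibril-associated collagen IX, rose by 1.11, 0.70, 1.3 and 0.65, although Col8a2 and Col9a3 had medians of 0.284 and 0.475 CPM with NMN and lost their calls without Doxo-NMN heart 2. Col5a2 passed the p threshold but not the fold threshold (0.48 ± 0.19, adjusted p = 0.0376).

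Both called lower were transmembrane members, while Col23a1 (-0.06 ± 0.25) and Col25a1 (-0.41 ± 0.30) were not called. Col13a1 ran from 0.979 to 2.45 CPM in Doxo-NMN hearts (median 1.31), and all 13 lay below the Doxo median of 4.55 (log2 fold change -1.92 ± 0.24, adjusted p = 3.9e-07). Col17a1 ran from 0 to 0.377 CPM, with a fitted log2 difference of -2.18 ± 0.42. Since Col17a1 passed the filter only through the Doxo hearts, its call gives no support to a difference. No type IV chain was called. Col4a3 differed from Doxo by 0.35 ± 0.21 (adjusted p = 0.162), with 10 of 13 Doxo-NMN hearts above the Doxo median. Col4a1 ran from 226 to 425 CPM (median 264) and lay below the Doxo median in 12 of 13 hearts, a log2 fold change of -0.37 ± 0.12 (adjusted p = 0.0084). Col4a2 ran from 213 to 391 CPM and differed from Doxo by -0.28 ± 0.11 on the log2 scale (adjusted p = 0.0268). Neither chain reached the fold threshold.

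Doxo-NMN vs. Ctrl shares the Ctrl hearts with the first comparison and the Doxo-NMN hearts with the second. In it 15 of 36 members were lower and 0 higher, against 3.79% of all genes lower and 3.31% higher. Of the 15, 6 were fibrillar, 5 basement membrane and 4 others. At an unadjusted p under 0.05 the count was 20 of 36, beside 5386 of the 14240 genes. The count was 7 in hearts with low Myl4 (6 lower and 1 higher) and 5 in those with high Myl4, where fewer hearts were compared. No share over all genes is given for these smaller fits.

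The median log2 fold change was -0.77 over the 8 fibrillar and -0.74 over the 8 basement membrane members tested. The log2 fold change against Ctrl was -1.29 ± 0.44 for Col3a1 (adjusted p = 0.0289) and -1.0 ± 0.37 for Col1a1 (adjusted p = 0.0385, edgeR). The Col1a1 call was lost in 11 of 40 fits that each left out 1 heart, with an adjusted p of up to 0.0658. For Col4a1 it was -0.82 ± 0.12 (adjusted p = 4.29e-06), and 12 of 13 Doxo-NMN hearts lay below the lowest Ctrl heart. It was -1.01 within hearts of low Myl4 and -0.75 within those of high Myl4. Col4a2 was at -0.48 ± 0.11 (adjusted p = 0.000981), under the fold threshold. Col15a1 (-1.37 ± 0.39) and Col5a3 (-1.10 ± 0.27) were below the lowest Ctrl heart in 13 of 13 Doxo-NMN hearts. Also called lower were Col1a2 (-0.75), Col5a1 (-0.64), Col5a2 (-0.78), Col4a3 (-0.90), Col4a4 (-0.76), Col18a1 (-0.72), Col6a1 (-0.73), Col6a2 (-0.97), Col6a3 (-1.16) and Col8a1 (-0.70). Of these, Col18a1 lost its call in 17 of the 40 fits and Col5a1 in 1, without Doxo-NMN heart 10. Col13a1 was at -0.33 ± 0.24 (adjusted p = 0.312) and Col17a1 at 0.26 ± 0.45 (adjusted p = 0.707).

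The chain ratios differed too. Col1a1 to Col1a2 had a median of 0.603 in Doxo-NMN hearts, higher than in Doxo by 0.94 (adjusted p = 0.00199, permutation test) and lower than in Ctrl by a log2 difference of -0.31 (adjusted p = 0.000446, permutation test). Col1a1 to Col3a1 (median 0.586) was 0.41 above Ctrl (adjusted p = 0.00032, permutation test), and its difference from Doxo was -0.26 (adjusted p = 0.297, permutation test). Col4a1 to Col4a2 had a median of 1.06, with a log2 difference of -0.34 from Ctrl (adjusted p = 6e-05, permutation test) and -0.07 from Doxo (adjusted p = 0.187, permutation test).

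Of 65 tested genes on 7 lists of factors that build, cut and bind collagen, 28 (43.1%) were lower and 4 (6.15%) higher in acute Doxo vs. Ctrl, beside the 15.4% and 14.7% of all genes. Of those for hydroxylation and glycosylation of the chains, 5 of 13 were lower and 0 higher (P4ha1, Plod1, P3h3, Crtap and Colgalt2). P4ha1, a prolyl hydroxylase subunit, fell from a mean of 64.4 ± 9.41 CPM (SD, n = 14) to 20.7 ± 13.9 (n = 13), a log2 fold change of -1.64, while P4hb, its abundant partner, averaged 198 CPM in Ctrl and 292 in Doxo (0.56, under the fold threshold). Of genes for folding and secretion 3 of 8 were lower (Serpinh1, Sparc and Creb3l1). Serpinh1, the collagen chaperone HSP47, fell from 254 ± 31.4 to 64.8 ± 64.0 CPM and stood at 132 ± 38.2 with NMN. Sparc, which binds collagen outside the cell, fell from 272 to 136 CPM and was at 161 with NMN.

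Of procollagen cleavage genes 1 of 8 rose and 1 fell, namely Adamts3 (log2 fold change 1.67), an amino-end procollagen proteinase, and Pcolce (-1.24), an enhancer of carboxy-end cleavage. All 5 cross-linking oxidases were called, 3 lower and 2 higher. Lox rose from 8.05 ± 2.13 to 32.9 ± 14 CPM, a log2 fold change of 2.03, and was at 10.1 ± 4.63 with NMN. Loxl1 and Loxl2 fell by 0.94 and 1.62. Adamts3 was named after its values were seen, as were the called marker genes of low level below.

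Among fibril-binding proteoglycans 6 of 8 fell, with Bgn from 214 to 87.3 CPM and Ogn from 129 to 45.5, while Dcn, the most abundant, went from 494 ± 121 to 700 ± 257 CPM (0.50, under the fold threshold). Of 14 basement membrane partners 6 fell and 1 rose. The proteoglycan Hspg2 fell by 0.65 from 486 CPM, and laminin Lamb2 was at 396 and 438 CPM. Among collagen receptors 4 of 9 fell (Itga2, Itga11, Lair1 and Mrc2), and Itgb1, the shared integrin beta chain, was at 460 and 492 CPM (log2 fold change 0.10). In Doxo-NMN vs. Doxo, 12 of the 65 (18.5%) were higher and 4 (6.15%) lower, beside 8.17% and 8.88% of all genes, and none was called in the chronic study.

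Cell type markers are given beside these results, and their part in them was not tested. In acute Doxo vs. Ctrl 15.4% of all tested genes were called lower and 14.7% higher. A count of called markers near these shares says nothing about a cell type. The 8 fibroblast markers summed to 256 to 391 CPM in Ctrl, 122 to 271 in Doxo and 166 to 333 in Doxo-NMN hearts of the acute study. Of the 8, 4 fell in Doxo vs. Ctrl, namely Dpt, Mfap4, Abca8a and Pi16, while Pdgfra, the receptor that defines cardiac fibroblasts, was at 50.01 ± 7.38 and 48.3 ± 10.5 CPM and the fibroblast factor Tcf21 at 6.97 and 7.89. The ratio of Col1a1 to the geometric mean of the 8 markers had a median of 4.75 in Ctrl, 1.05 in Doxo and 3.97 in Doxo-NMN. Its log2 difference was -2.20 in Doxo vs. Ctrl (adjusted p = 6e-05, permutation test), 1.76 for Doxo-NMN against Doxo, and -0.43 for Doxo-NMN against Ctrl. Of 7 activated fibroblast markers Acta2, Postn, Cilp and Comp fell, and Ctgf rose by a log2 fold change of 2.30.

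Endothelial cells are a main source of type IV collagen. The 8 endothelial markers summed to 734 to 944 CPM in Ctrl, 529 to 940 in Doxo and 550 to 839 in Doxo-NMN, with Cldn5 higher and Kdr lower in Doxo vs. Ctrl. The shares over all genes there, 15.4% lower and 14.7% higher, apply to each list of this paragraph. In Doxo-NMN vs. Ctrl, where Col4a1 was lowest, all 8 had negative log2 values, Kdr and Cldn5 were called lower, and the mean sum was 80.4% of Ctrl (93.8% in Doxo). Of all genes 3.79% were called lower in that comparison and 3.31% higher, and 6957 of 14240 had negative values. The part of these markers in the Col4a1 values was not tested. Of mural cell markers 0 of 6 were called. As for a heart sample, cardiomyocyte markers were abundant. The 6 genes summed to 49622.5 CPM or more in Ctrl, 28270.4 or more in Doxo and 35651 or more in Doxo-NMN hearts, a Doxo mean of 86.3% of Ctrl, and Myh6 fell while Tnnt2 and Actn2 rose in Doxo vs. Ctrl. Of 6 macrophage markers Adgre1 and Csf1r fell, and 1 other was higher by the p threshold but under the fold threshold. Of 6 epicardial markers Upk3b and Krt19 fell and Wt1 rose. Sox10 and Kcna1 fell among 4 Schwann cell markers, Plin1 among 3 adipocyte markers, and Chad and Sox9 among 3 cartilage markers. Of 5 atrial markers 0 were called, and they summed to 5.86 to 4034 CPM in Ctrl.

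Several collagens differed with the atrial genes inside the Ctrl group. Col4a1 was at 503 to 639 CPM in the 6 Ctrl hearts with low Myl4 and 379 to 448 in the 8 with high Myl4. Col1a1 and Col3a1 were lower in the first, with medians of 89.8 and 185 CPM against 123 and 273. Col18a1 was at 9.91 to 12.7 CPM in the first and 16.9 to 27.8 in the second. The ranges were 0.621 to 1.47 against 1.98 to 4.94 for Col12a1, and 8.91 to 18.6 against 20.6 to 37.7 for Col14a1. Other members separated too, such as Col4a6 (0.964 to 1.47 against 5.14 to 9.54), while Col4a5 overlapped (44.3 to 52.7 against 49.2 to 60.4). These values are a description of hearts split by Myl4 and carry no test. No share over all genes is given beside them.

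In the chronic study no collagen differed between groups by the test. Each of the 3 comparisons (Doxo against Ctrl, Doxo-NMN against Doxo, and Doxo-NMN against Ctrl) called 0 of 32 tested members at an adjusted p under 0.05 (edgeR), where 0.0602%, 0% and 0.0401% of all 14960 genes were called. At an unadjusted p under 0.05 the counts were 3, 2 and 3 of the 32 members, beside 1174, 441 and 707 of the 14960 genes. DESeq2 and voom also called 0. Median log2 fold changes were -0.04, 0.03 and 0.01. The 12 members not tested were Col2a1, Col6a4, Col6a5, Col9a1, Col9a2, Col10a1, Col11a1, Col17a1, Col19a1, Col24a1, Col25a1 and Col26a1.

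Levels of the main chains overlapped between chronic groups. Col1a1 was at 83.9, 87.9, 110, 97.7 and 105 CPM in the 5 Ctrl hearts. It ran from 15.1 to 106 CPM in the 6 Doxo hearts (median 102) and from 54.2 to 137 in the 6 Doxo-NMN hearts (median 89.8). Apart from heart 2 at 15.1 CPM, the Doxo hearts lay between 99.3 and 106. The log2 fold change in Doxo vs. Ctrl was -0.13 ± 0.32 (adjusted p = 0.938), and 0.09 without heart 2.

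Other classes gave the same picture. Col3a1 was at 103, 130, 153, 128 and 132 CPM in Ctrl, 7.93 to 161 in Doxo (median 133) and 54.4 to 189 in Doxo-NMN (median 98.5). Col15a1 was at 57, 85.9, 96.5, 83.7 and 94.8 CPM in Ctrl, 5.05 to 105 in Doxo and 54.3 to 93.1 in Doxo-NMN. In both genes heart 2 was the low value of the Doxo group, and the log2 fold changes without it were 0.11 and 0.22. Col4a1 was at 407, 366, 470, 433 and 472 CPM in Ctrl, 167 to 445 in Doxo and 204 to 393 in Doxo-NMN, with log2 fold changes of -0.23 ± 0.20 for Doxo vs. Ctrl, -0.08 without heart 2, and, for Doxo-NMN vs. Ctrl, -0.41 ± 0.20 (adjusted p = 0.999). Fibrillar sums averaged 92.6% of Ctrl in Doxo hearts, but 106% without heart 2, and 92.7% in Doxo-NMN. Basement membrane sums averaged 88.2% in Doxo, 96.8% without heart 2, and 80.5% in Doxo-NMN. Doxo-NMN heart 4, the highest of its group for 16 of the 21 members, also had the most Myl4 of the chronic hearts (83.8 CPM), with 237 CPM of atrial and 8.83 CPM of adipocyte markers, and the part of these tissues was not tested. Fibroblast markers summed to 263 to 315 CPM in Ctrl, 156 to 329 in Doxo and 251 to 440 in Doxo-NMN. None of the 12 chronic ratio tests had an adjusted p under 0.05 (lowest 0.137, exact permutation test).

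**Figure D5:**
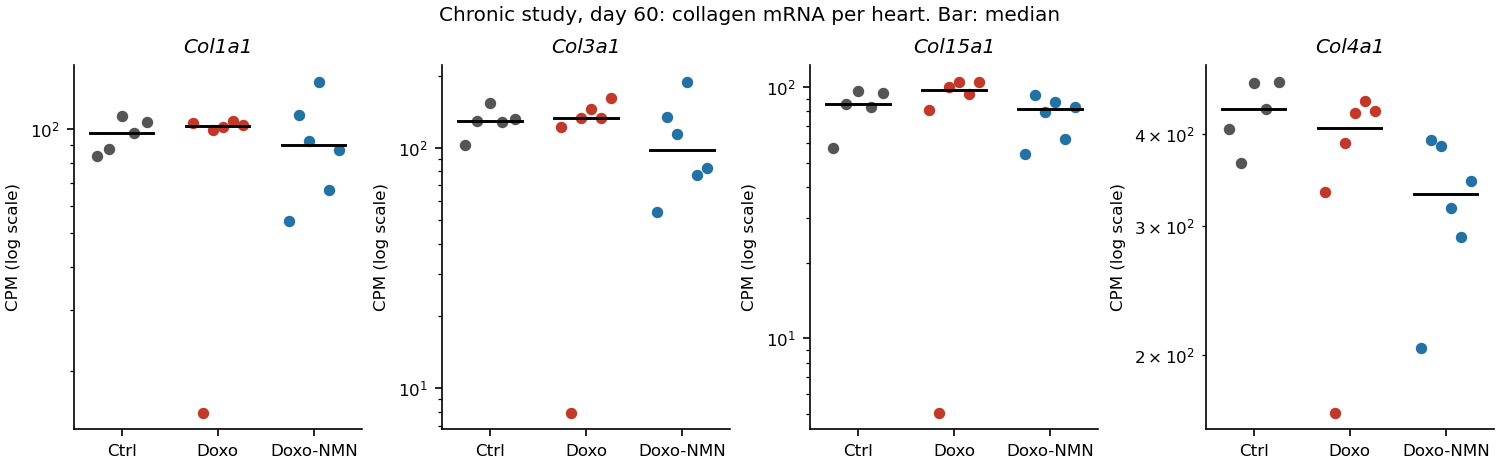
Level of Col1a1, Col3a1, Col15a1 and Col4a1 in each chronic heart (CPM, log axis), with a bar at each group's median. Doxo heart 2 lies apart at 15.1, 7.93, 5.05 and 167 CPM while the other hearts of the 3 groups overlap.

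Whether the effect of Doxo differed between the studies was tested with an interaction term on the Ctrl and Doxo hearts of both. It differed for 17 of 39 tested members, all with a higher value in the chronic study, where 8.33% of all genes were called in that direction. These 17 were 7 fibrillar, 3 basement membrane and 7 other collagens. For Col15a1 the difference was 2.7 ± 0.77 on the log2 scale (adjusted p = 0.0157, edgeR), for Col3a1 2.65 ± 0.85 and for Col6a3 2.53 ± 0.76. Without acute Doxo heart 6 these were 3.61, 3.48 and 3.32. For Col1a1 it was 2.26 ± 0.71 (adjusted p = 0.0252). For Col4a1 and Col4a2 it was 0.22 ± 0.24 and -0.00 ± 0.20, and for the rising Col13a1 it was -1.01 ± 0.45 (adjusted p = 0.0971). The count was 20 without acute Doxo heart 6, with Col13a1 then at -1.10 (adjusted p = 0.0401), 18 without chronic Doxo heart 2, and 12 without chronic Ctrl heart 4.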

How the data were processed

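RNA-seq was performed on 40 acute and 17 chronic mouse hearts. The authors aligned single-end reads to mm10 with STAR (2.7.3a in the submitters' processing notes) and deposited raw featureCounts (2.0.0) counts per gene. The strand setting and annotation are not given in the sources used here. Most low acute counts were even (median 73.6% per heart, 40.3% in chronic hearts), so halved counts were tried as an alternative. Totals gave a floor of 3 counts, worth 0.0576 to 0.0926 CPM for the acute study (chronic study: 0.126 to 0.169), which covers counting error only.

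Each study was fitted with its 3 groups in edgeR 4.0.16 (R 4.3.3, limma 3.58.1) by the quasi-likelihood F-test, after filterByExpr and TMM, with Benjamini-Hochberg adjustment over all tested genes. An acute call needed an adjusted p under 0.05 and a fold change of 1.5, and a chronic or interaction call the adjusted p alone. Standard errors were the log2 fold change divided by the square root of F. Count ratios per heart were tested by two-sided permutation over hearts, exact where a group had under 10 hearts and otherwise with 100000 resamples. A pseudocount of 0.1 CPM was used for the fibroblast markers. p-values set a group difference against the spread between hearts. The procedure was tested on simulated data.

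The members and lists were chosen with earlier results of these data known. Genes named were the 4 of each class with the highest Ctrl CPM per kilobase, every member called, members removed by the filter, and 2 to 4 partner or marker genes per list with the highest mean CPM. Alternatives were DESeq2 1.42.0, voom, other scaling, filters and call rules, a replicate block, atrial classes, and leaving out each heart. How reads that fit several collagen chains or overlapping genes were counted is not given, and this may affect the values of such genes.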

Additional observations from a re-analysis of the deposited data

Results flagged for a closer look

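Chronic Doxo heart 2 stood apart from the other 5 hearts of its group by Dixon's criterion. It had the lowest Col3a1 (7.93 CPM), Col1a1 (15.1), Col1a2 (26.4), Col4a2 (210.9), Col15a1 (5.05), Col6a1 (30.4), Col6a2 (18.1), Col6a3 (4.14) and Col14a1 (2.24). Its sums were the lowest as well, at 107.9 CPM for fibrillar, 436.7 for basement membrane and 83.7 for other collagens. On the log2 scale its ratio of Col1a1 to Col1a2 was the lowest (-0.81), that of Col1a1 to Col3a1 the highest (0.93) and that of Col1a1 to the fibroblast markers the lowest (0.83). Chronic Doxo-NMN heart 4 was the highest of its group for Col1a2 (180.1 CPM) and Col14a1 (27.7), and chronic Ctrl heart 1 was the lowest for the sum of other collagens (261.9 CPM). In all 18 of 63 groups of values had such a heart, where chance gives about 1 in 20, and the genes of 1 heart are not independent.

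The effect of Doxo differed between the studies, by the interaction test, for 17 collagens. The differences, chronic minus acute on the log2 scale, were 2.26 for Col1a1, 1.57 for Col1a2, 2.65 for Col3a1, 1.65 for Col5a1, 1.34 for Col5a2, 2.10 for Col5a3 and 0.91 for Col27a1 among the fibrillar genes. They were 1.24 for Col4a3, 0.88 for Col4a4 and 2.7 for Col15a1 in the basement membrane class. Among the others they were 1.86 for Col6a1, 2.09 for Col6a2, 2.53 for Col6a3, 1.99 for Col6a6, 1.16 for Col8a1, 1.16 for Col9a3 and 1.85 for Col14a1.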

How the results depend on the processing

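Counts of called collagens stayed within 1.5 times the reported value under every alternative other than the split by atrial class, where Doxo-NMN vs. Doxo gave 10 in hearts with low Myl4, and Doxo-NMN vs. Ctrl gave 7 in hearts with low and 5 in hearts with high Myl4. Fewer hearts enter these fits, and no share over all genes is given for them. In low-Myl4 hearts Col12a1 turned to 0.030 in Doxo vs. Ctrl (adjusted p = 0.946, edgeR), and the log2 difference of Col1a1 to fibroblast markers was -0.49 in Doxo-NMN vs. Ctrl. In high-Myl4 hearts the differences that no longer passed were 1.01 (Col1a1 to Col1a2, Doxo-NMN vs. Doxo), 0.31 (Col1a1 to Col3a1, Doxo-NMN vs. Ctrl) and 1.74 (Col1a1 to fibroblast markers, Doxo-NMN vs. Doxo). The cause was not tested. Leaving out 1 heart at a time gave 22 to 24, 16 to 19 and 12 to 18 calls in the 3 acute comparisons, 0 in the chronic ones and 12 to 20 in the interaction. In the interaction, Col14a1 lost its call in 9, Col27a1 and Col4a4 in 8 each, Col9a3 in 7 and Col3a1 in 2 of 38 such fits. Class sums without acute Doxo heart 6 or chronic Doxo heart 2 were added after seeing the data. In chronic Doxo-NMN vs. Ctrl, Col1a1 to Col3a1 ranged from 0.16 to 0.26 and Col4a1 to Col4a2 from -0.13 to -0.063, and both passed without Doxo-NMN heart 4. Shared replicate numbers did not pair the hearts (median correlation of deviations 0.0605 over 39 acute and 0.0223 over 16 chronic pairs), and 4 of 40 acute and 3 of 17 chronic hearts correlated best with their own number. The replicate block gave 23 acute calls for Doxo against Ctrl, 16 for Doxo-NMN against Doxo, 17 for Doxo-NMN against Ctrl, and 0 chronic calls.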
